A study of Mus musculus with 6 samples.

Results

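The 36 genes described here take part in the interferon response and in the presentation of antigen on major histocompatibility complex (MHC) class I. They were taken by gene symbol from a fixed list, and all 36 were among the 39174 genes of each deposited table. RNA-seq had been done on 6 libraries from primary cultures of mouse motoneurons of strain CD-1, 3 labelled Nmd+/+ and 3 labelled Nmd-/-, with no treatment, age or culture time given in the labels. Nmd-/- mice carry on both chromosomes the nmd (neuromuscular degeneration) mutation of the helicase gene Ighmbp2, in every cell and not only in motoneurons. The labels do not say whether libraries of a genotype came from separate cultures, and the spread behind each p-value may therefore be technical.

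Type I interferons bind a receptor made of 2 chains, Ifnar1 and Ifnar2. Receptor-bound kinases then activate Stat2, which joins Irf9 in a complex that binds interferon response elements in the promoters of interferon-stimulated genes. Many cells of the nervous system hold little MHC class I when unstimulated and can raise it on exposure to interferon.

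The mutated gene Ighmbp2 measured 1.44, 1.303 and 1.09 FPKM (fragments per kilobase of transcript, scaled to the mapped fragments of the library) in Nmd+/+ replicates 1 to 3 and 0.876, 0.788 and 0.598 FPKM in Nmd-/- replicates 1 to 3. Its values did not overlap between genotypes. No gene passed the test between genotypes given below, Ighmbp2 included. Of 7 motoneuron genes in the files, Isl1 lay between 0.608 and 1.81 FPKM, Lhx3 between 0.404 and 0.734 FPKM and Slc5a7 between 0.188 and 0.460 FPKM. Chat and Mnx1, which define the type, did not exceed 0.0692 and 0.0247 FPKM in any library, so levels below are those of the culture as sequenced. Libraries numbered 2 stood apart in both genotypes. The summed FPKM of 14 fibroblast and meningeal genes was 339.5 and 390.5 there, against 62.1 to 100.2 in the other 4 libraries. That of 9 neuronal genes was 564.3 and 633.8 there, against 868.9 to 1230 elsewhere.

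Stretches of promoter are shown first for members above and below 1 FPKM. Members were chosen by symbol and not by promoter sequence. Interferon-stimulated genes are known for this element, however, so a high share among the members follows in part from their choice. RefSeq promoter windows on GRCm38.p6, from 250 bases before to 50 bases after a start site, were held for 30 of the 36 members; Dhx58, Ifi27, Mx1, Mx2, Tap2 and Usp18 were not matched. The element was searched as GAAA, 2 bases of any kind, and GAAA again, on both strands. It was present in 13 of the 30 members (43.3%) and in 3.99% of all 27025 genes with a window of that length. In 10 of the 13 it lay wholly before the start site. The stretches below run 5′ to 3′ along the gene's strand, with the element in capitals, either as searched or, for an element on the opposite strand, as its reverse complement. B2m (chr2:122147533-122147572, plus strand), Ifitm2 (chr7:140955983-140956022, minus), Bst2 (chr8:71537572-71537617, minus) and Stat2 (chr10:128270261-128270300, plus) were each above 1 FPKM in every library. Isg15 (chr4:156200860-156200911, minus), Ifit1 (chr19:34640789-34640828, plus), Ifit3 (chr19:34583392-34583431, plus) and Oas1a (chr5:120907526-120907560, minus) were each below 1 FPKM in every library.
B2m: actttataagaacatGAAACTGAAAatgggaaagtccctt
Ifitm2: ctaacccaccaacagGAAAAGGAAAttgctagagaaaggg
Bst2: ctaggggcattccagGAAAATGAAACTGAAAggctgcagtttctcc
Stat2: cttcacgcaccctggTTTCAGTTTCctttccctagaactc
Isg15: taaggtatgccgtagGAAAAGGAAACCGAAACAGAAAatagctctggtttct
Ifit1: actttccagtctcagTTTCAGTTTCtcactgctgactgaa
Ifit3: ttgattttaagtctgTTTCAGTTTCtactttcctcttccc
Oas1a: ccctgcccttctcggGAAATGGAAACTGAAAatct

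Isg15 held 3 overlapping copies of the element, and Bst2 and Oas1a held 2 each. Ifit1 and Ifit3 each held a further copy, not shown. The element was thus found both in members above 1 FPKM and in members below it. Of those shown above 1 FPKM, Bst2 and Stat2 had means of only 3.845 and 3.21 FPKM. It was in 8 of the 22 members with a window and a mean of at least 1 FPKM, and in 5 of the 8 below that mean. A second motif, the gamma-activated site of genes that respond to interferon gamma, was searched as TTC, any 3 bases, and GAA. It was present in 11 of the 30 members (36.7%), Irf1, Psmb8, Ifnar1 and Ifnar2 among them, and in 9.55% of all genes. Matches of both motifs were counted separately and may share bases. A match in these letters does not show that a factor binds.

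The means of the members spanned more than 4 orders of magnitude, and Mx2, Ifit1, Mx1 and Oas1a had the lowest. B2m, which encodes the light chain of MHC class I, had the highest mean (242.8 FPKM over the 6 libraries), followed by Ifitm3 (143.2 FPKM) and Ifitm2 (83.4 FPKM). These 3 genes made up between 68.1% and 78.7% of the summed FPKM of the members in each library. A mean of at least 1 FPKM, the level required for testing, was reached by 24 members, and 12 lay below it. Each of the 24 also reached 1 FPKM on average without the libraries numbered 2.

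**Figure D1:**
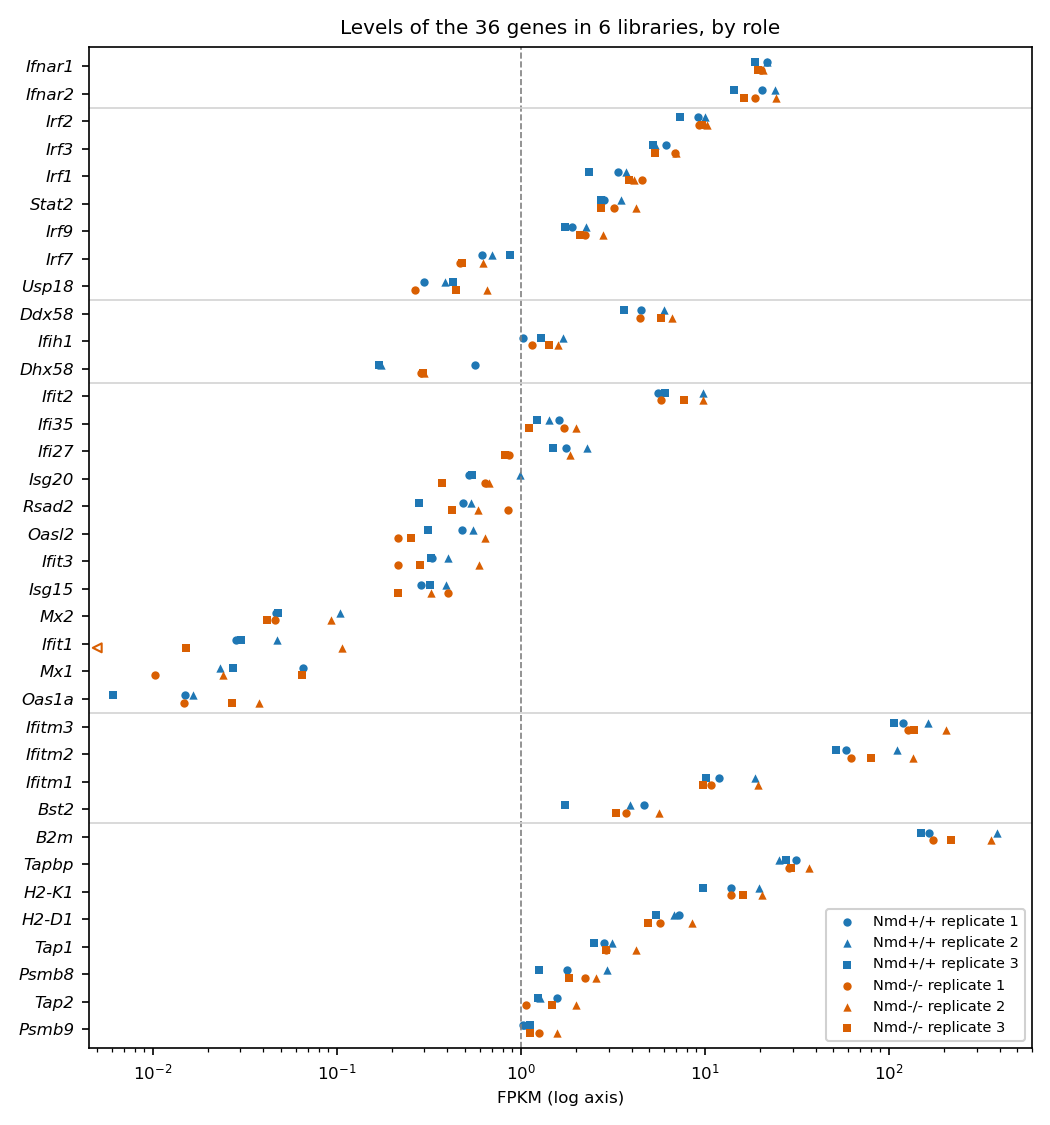
FPKM of the 36 genes on a log axis, 1 point per library, with roles separated by grey lines in the order receptors, signalling, sensors, effectors, membrane proteins and presentation. The dashed line marks 1 FPKM, and the open triangle at the left edge marks Ifit1 in Nmd-/- replicate 1, listed at 0. B2m and Ifitm3 lie above 100 FPKM in every library, and Mx2, Ifit1, Mx1 and Oas1a lie below 0.11 FPKM in every library.

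The receptor was expressed at moderate levels, and interferon genes were at or near 0. Ifnar1 (ENSMUSG00000022967, chr16:91485238-91507441), the chain that binds the kinase Tyk2, measured 21.9, 21.7 and 18.75 FPKM in Nmd+/+ and 20.2, 20.8 and 19.5 FPKM in Nmd-/- (replicates 1 to 3, an order kept below). Coordinates of genes are on GRCm38 and count from 1. Its values overlapped, and its log2 difference, Nmd-/- minus Nmd+/+ on the log2(FPKM + 1) scale, was -0.04 (SE 0.12, 95% interval -0.32 to 0.25; limma adjusted p = 0.9997). The other chain, Ifnar2, measured 20.5, 23.96 and 14.4 FPKM in Nmd+/+ and 18.8, 24.3 and 16.4 FPKM in Nmd-/-. In both genotypes its highest library was replicate 2 and its lowest replicate 3. Of 11 interferon genes, 7, Ifng and Ifna4 among them, were listed at 0 in all 6 libraries. Ifnk had the highest mean of the 11, at 0.0779 and 0.0507 FPKM in replicate 2 of Nmd+/+ and Nmd-/-, and was listed at 0 in the other 4 libraries. Ifnb1, the interferon that many cell types make first, measured 0.0814 and 0.0265 FPKM in those libraries and was listed at 0 in the rest. Ifnz lay between 0 and 0.0572 FPKM.

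Among the signalling members, 5 of 7 reached a mean of 1 FPKM, and Irf7 and Usp18 did not. Irf2 (ENSMUSG00000031627, chr8:46739745-46847458), a repressor of interferon-stimulated genes, was the highest, at 9.13, 10.03 and 7.30 FPKM in Nmd+/+ and 9.30, 10.3 and 9.63 FPKM in Nmd-/-. Its log2 difference was 0.14 (SE 0.15, limma adjusted p = 0.9997). Irf3, which is activated by phosphorylation downstream of the nucleic acid sensors, lay between 5.21 and 6.97 FPKM, Stat2 between 2.72 and 4.24 FPKM and Irf9 between 1.74 and 2.78 FPKM. Irf7, which amplifies the response, lay between 0.470 and 0.873 FPKM, and Usp18, which holds back signalling at Ifnar2, between 0.267 and 0.657 FPKM. Irf3 and Irf9 overlap the loci of Bcl2l12 and Rnf31 by 1065 and 123 bases. Whether strand was used in counting is not given in the sources used here, so some reads of such neighbours may not have been told apart.

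Irf1 (ENSMUSG00000018899, chr11:53770014-53778374), a transcription factor that responds to interferon gamma and drives MHC class I genes, was the member whose genotypes did not overlap. It measured 3.38, 3.73 and 2.35 FPKM in Nmd+/+ and 4.58, 4.11 and 3.86 FPKM in Nmd-/-, means of 3.15 ± 0.72 and 4.18 ± 0.37 (SD, n = 3 each). Each Nmd-/- library was above each Nmd+/+ library, and the ratio of means was 1.33. The log2 difference of 0.33 (SE 0.17, 95% interval -0.06 to 0.72) did not pass in limma (adjusted p = 0.9997, and 0.990 with the replicate number as a block). Such separation was seen in 1 of 24 tested members (4.17%), beside 2.67% of the 14611 genes tested.

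The RNA sensors differed in level. Ddx58 (ENSMUSG00000040296, chr4:40203773-40239828), which encodes RIG-I, measured 4.53, 5.98 and 3.66 FPKM in Nmd+/+ and 4.45, 6.66 and 5.77 FPKM in Nmd-/-. The groups overlapped, with a log2 difference of 0.22 (SE 0.20, limma adjusted p = 0.9997). Ifih1, which encodes MDA5, lay between 1.04 and 1.69 FPKM. Dhx58, which encodes LGP2, lay between 0.171 and 0.564 FPKM, and its intervals correspond to no more than 16.8 fragments in any library.

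Most antiviral effectors were at low or very low levels in both genotypes. Mx1 and Mx2, dynamin-like GTPases that block virus replication, did not exceed 0.0653 and 0.104 FPKM. Ifit1, which binds foreign RNA caps, did not exceed 0.108 FPKM, and Oas1a, a synthetase of 2-5A that switches on RNase L, did not exceed 0.0379 FPKM. The upper bounds of the deposited 95% intervals for these 4 genes reached at most 0.206 FPKM (Mx1). Isg15, a ubiquitin-like modifier and one of the most inducible of these genes, measured 0.287, 0.394 and 0.320 FPKM in Nmd+/+ and 0.404, 0.324 and 0.215 FPKM in Nmd-/-. Neither genotype stood above the other in Isg15. Rsad2, which encodes viperin, had its highest value, 0.854 FPKM, in Nmd-/- replicate 1, and the other 5 libraries stayed at or below 0.589 FPKM. Isg20, an exonuclease gene, lay between 0.372 and 0.993 FPKM, Oasl2 between 0.216 and 0.637 FPKM and Ifit3 between 0.215 and 0.596 FPKM. Counting error alone is large for such genes: the intervals of the 12 members below 1 FPKM correspond to between 0 and 61.1 fragments per library.

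The effectors above 1 FPKM were Ifit2, Ifi35 and Ifi27. Ifit2 (ENSMUSG00000045932, chr19:34550694-34576419), a neighbour of Ifit1 and Ifit3 in a cluster of 99.3 kb on chromosome 19, measured 5.595, 9.75 and 6.11 FPKM in Nmd+/+ and 5.82, 9.75 and 7.71 FPKM in Nmd-/-. It was thus more than 10 times as high as Ifit3 in each library on this per-length scale, and its highest library was replicate 2 in both genotypes. The log2 difference of Ifit2 was 0.11 (SE 0.24, limma adjusted p = 0.9997), and leaving out Nmd+/+ replicate 1 turned it to -0.02, and Nmd-/- replicate 2 to -0.05. Ifi27 (ENSMUSG00000064215, chr12:103434211-103440239), a gene named for its induction by interferon alpha, measured 1.753, 2.30 and 1.496 FPKM in Nmd+/+ and 0.868, 1.85 and 0.818 FPKM in Nmd-/-. It was lower in Nmd-/- in 3 of 3 same-numbered pairs, with a ratio of means of 0.638 and with Nmd-/- replicate 2 above Nmd+/+ replicates 1 and 3. Its log2 difference of -0.41 (SE 0.21, 95% interval -0.91 to 0.09) did not pass in limma (adjusted p = 0.9997, and 0.944 with the replicate block). Ifi35 lay between 1.11 and 1.99 FPKM.

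Proteins that restrict viruses at membranes were among the highest members. Ifitm3 (ENSMUSG00000025492, chr7:141009586-141010770), which blocks virus fusion in endosomes, measured 118.9, 163.4 and 106.9 FPKM in Nmd+/+ and 127.7, 205.0 and 136.9 FPKM in Nmd-/-. Its means were 129.8 ± 29.8 and 156.5 ± 42.3 FPKM (SD, n = 3 each), higher in Nmd-/- in 3 of 3 pairs, with a log2 difference of 0.26 (SE 0.24, 95% interval -0.29 to 0.81; limma adjusted p = 0.9997, and 0.990 with the replicate block). The genotypes overlapped, since Nmd+/+ replicate 2 was above Nmd-/- replicates 1 and 3. Ifitm2 measured 58.7, 110.9 and 51.4 FPKM in Nmd+/+ and 62.7, 136.1 and 80.4 FPKM in Nmd-/-, and Ifitm1 11.9, 18.9 and 10.1 FPKM in Nmd+/+ and 10.8, 19.6 and 9.79 FPKM in Nmd-/-. Within the cluster of 55.9 kb on chromosome 7 that holds these 3 genes, the order Ifitm3, Ifitm2, Ifitm1 was the same in all 6 libraries. Ifitm genes are similar in sequence, and reads shared between copies make their separate levels uncertain. Bst2, which encodes tetherin, measured 4.69, 3.94 and 1.75 FPKM in Nmd+/+ and 3.74, 5.66 and 3.29 FPKM in Nmd-/-, with the lowest library replicate 3 in both.

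The class I pathway was detected at each step, from the proteasome to the cell surface complex, at very unequal levels. B2m (ENSMUSG00000060802, chr2:122147686-122153083) measured 165.3, 388.7 and 150.3 FPKM in Nmd+/+ and 173.9, 360.4 and 218.3 FPKM in Nmd-/-. Both replicate 2 libraries stood above the other 4, and the genotypes overlapped (234.8 ± 133.6 and 250.9 ± 97.4 FPKM, SD, n = 3 each). Its log2 difference was 0.17 (SE 0.41, 95% interval -0.79 to 1.12; limma adjusted p = 0.9997), and it turned to -0.02, -0.08 and -0.13 without Nmd+/+ replicate 1, Nmd+/+ replicate 3 and Nmd-/- replicate 2. Of the class I heavy chains that pair with B2m, H2-K1 measured 13.85, 19.7 and 9.76 FPKM in Nmd+/+ and 13.85, 20.4 and 16.1 FPKM in Nmd-/-. H2-D1 lay between 4.95 and 8.56 FPKM. B2m was thus the more abundant transcript by at least 10 times in each library. Class I genes are many and alike in sequence, so reads may have been divided between copies, and the levels of H2-K1 and H2-D1 are uncertain.

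Of the loading machinery, Tapbp, which encodes tapasin, was the highest, between 25.2 and 36.9 FPKM. The peptide transporter genes Tap1 and Tap2 lay between 2.51 and 4.21 and between 1.07 and 2.01 FPKM. Psmb8 and Psmb9 encode subunits that replace constitutive ones in the immunoproteasome, and lie with Tap1 and Tap2 in 34.3 kb of chromosome 17. Psmb8 lay between 1.26 and 2.96 FPKM, and Psmb9 (ENSMUSG00000096727, chr17:34181988-34187764) measured 1.03, 1.06 and 1.12 FPKM in Nmd+/+ and 1.26, 1.57 and 1.12 FPKM in Nmd-/-. The groups met at replicate 3, where the values were 1.12 in both genotypes, and the log2 difference was 0.16 (SE 0.14, limma adjusted p = 0.9997). The constitutive subunit genes Psmb5, Psmb6 and Psmb7 lay between 27.5 and 144.4 FPKM, far above Psmb8 and Psmb9 in each library. Psmb9 and Tap1 overlap by 212 bases, and Tapbp overlaps Zbtb22 by 3421 bases.

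Between genotypes, no member passed the test. Of the 24 tested, 0 had a limma adjusted p under 0.05, where the share of all 14611 genes was 0%. An unadjusted p under 0.05 was found for 0 members and for 65 of all genes. With the replicate block 0 members and 0 genes passed, and 711 genes had an unadjusted p under 0.05. Among members, 4 (Ifi27, Ifitm2, Irf1 and Ifitm3) had an unadjusted p under 0.05. The fitted differences lay between -0.41 (Ifi27) and 0.34 (Ifitm2) on the log2 scale. Their 95% intervals reached from 0.29 (Ifnar1) to 0.96 (B2m) to either side, and with the replicate block from 0.23 (Ifnar1) to 0.36 (Bst2). For B2m the interval was -0.79 to 1.12 without the block and -0.12 to 0.46 with it. By their means, 20 of 24 members (83.3%) were higher in Nmd-/-, beside 56.0% of all genes tested, and the median difference was 0.15, beside 0.017. Over all 36 members 25 had a higher mean FPKM in Nmd-/-, 5 of them among the 12 below 1 FPKM. With all 36 in the fit and no filter on low values, the median was 0.086. Lists of cell type markers also differed in direction, with no gene past the test. Of neuronal genes 0 of 9 were higher in Nmd-/- (median -0.14), and of genes of dividing cells 6 of 6 (0.22). For tested fibroblast and meningeal genes it was 8 of 11 (0.15), and for microglia and macrophage genes 4 of 5 (0.16). Glia and progenitor genes were evenly split, with 5 of 10 higher (-0.011). The part of these cell types in the shift of the members was not tested. In the same-numbered pairs 1, 2 and 3, 15, 18 and 18 members were higher, with medians of 0.04, 0.17 and 0.16. Single libraries moved both values: without Nmd-/- replicate 2, 13 members were higher and the median was 0.03, and without Nmd+/+ replicate 3, 16 were higher and the median was 0.03. With replicate 2 of both genotypes left out, 17 were higher and the median was 0.09.

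**Figure D2:**
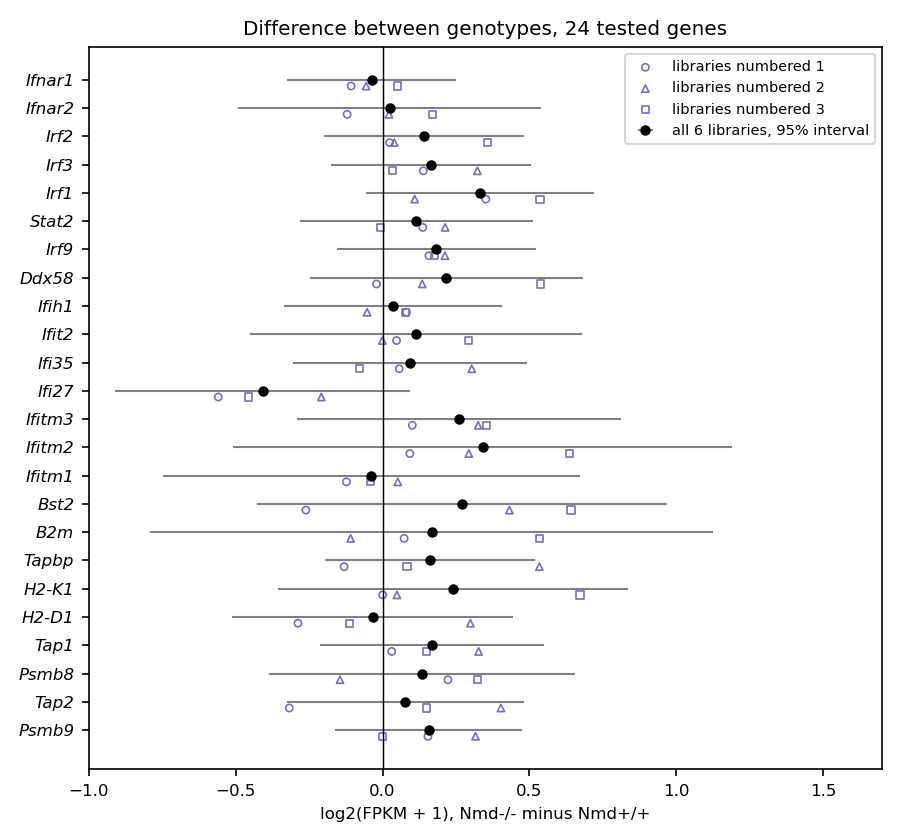
Differences between genotypes on the log2(FPKM + 1) scale for the 24 tested genes, ordered by role. Black points and bars are limma estimates from all 6 libraries with 95% intervals, and open symbols are the differences within libraries of the same number. Each interval spans 0, and 20 of the 24 points lie to its right.

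Between replicate numbers the members moved much more. The test asked whether libraries numbered 1, 2 and 3 differed beyond the spread within a number, with genotype in the fit. Its p-values are for any difference among the numbers and not for the ratios given beside them. The labels do not say what a number stands for. B2m was 2.12 times as high in the libraries numbered 2 as in the other 4 by mean FPKM (limma F test, adjusted p = 0.0023), Ifitm2 1.95 times (0.0028), Ifitm1 1.803 times (0.0031) and Ifitm3 1.503 times (0.0122). Ifit2 was 1.55 times as high there (0.0141), Ifnar2 1.38 times (0.019), Bst2 1.43 times (0.0385) and H2-K1 1.495 times (0.0396). These 8 of 24 tested members (33.3%) passed, beside 28.6% of all genes, so that the number of calls was close to that of genes at large. For Bst2, Nmd+/+ replicate 1 (4.69 FPKM) was above Nmd+/+ replicate 2 (3.94 FPKM). With no filter on low values, 0 members and 0 genes passed. An unadjusted p under 0.05 was then found for 8 of 36 members, beside 6348 of 27711 genes, a similar share.

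What the members shared was the direction, as an average over both genotypes. By mean log2 values all 24 tested members were higher in the libraries numbered 2 than in the other 4, beside 53.1% of all genes, and this count was 24 with median-of-ratios scaling and with quantile normalization too. The differences ran from 0.05 (Irf3) to 1.09 (B2m), with a median of 0.34, beside 0.02 over all genes. Not each member was higher there within both genotypes. In Nmd+/+ Tapbp was lowest in replicate 2 (25.2 FPKM, against 31.4 and 27.6 FPKM in replicates 1 and 3). Irf3, Tap2 and Psmb9 in Nmd+/+ replicate 2 lay below the mean of Nmd+/+ replicates 1 and 3. In Nmd-/- Irf1 was higher in replicate 1 (4.58 FPKM) than in replicate 2 (4.11 FPKM). Both libraries numbered 2 stood above each of the other 4 for 15 of the 24 (62.5%), beside 20.6% of all genes, and below each of them for 0, beside 18.8%. Of the 12 members below 1 FPKM, 5 (Isg20, Oasl2, Ifit3, Mx2 and Ifit1) had both libraries numbered 2 on top. Dhx58 and Mx1 had lower means there than in the other libraries. With the libraries numbered 2 left out, 1 of 24 members differed between numbers 1 and 3, beside 19.6% of all genes. This was Bst2, lower in number 3 by a log2 difference of -0.60 (limma adjusted p = 0.0398).

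**Figure D3:**
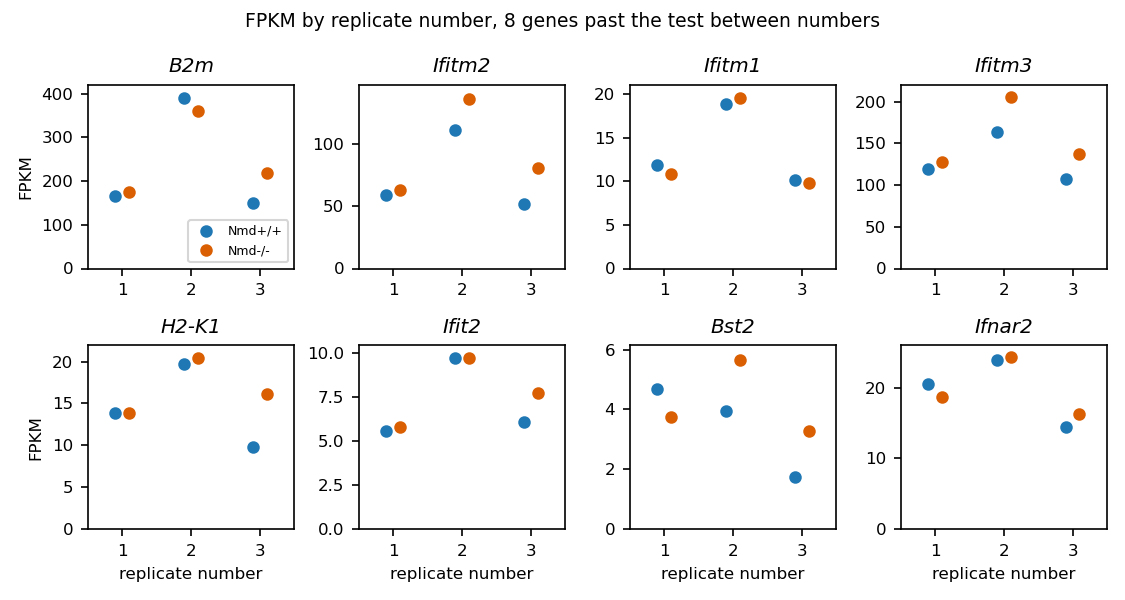
FPKM by replicate number for the 8 members past the test between numbers, 1 point per library, with vertical axes starting at 0 and genotypes offset sideways for legibility. For B2m, the Ifitm genes, H2-K1, Ifit2 and Ifnar2 both points at number 2 lie above the other 4, and for Bst2 Nmd+/+ replicate 1 lies above Nmd+/+ replicate 2.

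Many markers of other cell types moved with the libraries numbered 2, and some did not. Col1a1, a fibroblast collagen gene, measured 38.3 and 51.1 FPKM there and no more than 1.36 FPKM elsewhere. Of 14 fibroblast and meningeal genes 11 reached a mean of 1 FPKM, and 10 of these 11 were higher there by mean log2 values. Thy1 was the exception, at 6.96 and 9.06 FPKM in the libraries numbered 2 against 7.78 to 14.96 FPKM in the others. Summed FPKM of 16 microglia and macrophage genes was 17.2 and 24.9 in the libraries numbered 2 and between 8.41 and 10.9 in the others, and 5 of the 16 reached a mean of 1 FPKM. P2ry12, a defining microglial gene, stayed at or below 0.154 FPKM in each library. Ptprc, which does not define microglia, measured 0.0834 and 0.118 FPKM in the libraries numbered 2 and no more than 0.0446 FPKM elsewhere. Tmem119 measured 0.713 and 1.03 FPKM in the libraries numbered 2 and no more than 0.0724 FPKM elsewhere, and C1qa 0.603 and 0.903 FPKM there and no more than 0.488 FPKM elsewhere. For 12 endothelial and pericyte genes the sums were 18.8 and 20.7 against 10.35 to 15.7, and 1 of the 12, Kdr, reached a mean of 1 FPKM. Kdr, at 15.2 and 16.9 FPKM in the libraries numbered 2, made up most of these sums. Pecam1 did not rise there (0.181 and 0.107 FPKM, against 0.123 to 0.236 elsewhere). Esam was lower there (0.0336 and 0.0328 FPKM, against 0.0514 to 0.390 elsewhere). Cldn5 did not exceed 0.0433 FPKM, while Cdh5 measured 0.393 and 0.604 FPKM in the libraries numbered 2 and was listed at 0 in the others, and Flt1 measured 1.235 and 0.795 FPKM there and no more than 0.120 FPKM elsewhere. The part of these cells in the levels of the members was not tested, and in bulk RNA more cells of a type cannot be told apart from more RNA per cell. Between genotypes these sums overlapped: 62.1 to 339.5 in Nmd+/+ and 88.7 to 390.5 in Nmd-/- for fibroblast and meningeal genes, and 8.86 to 17.2 and 8.41 to 24.9 for microglia and macrophage genes.

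**Figure D4:**
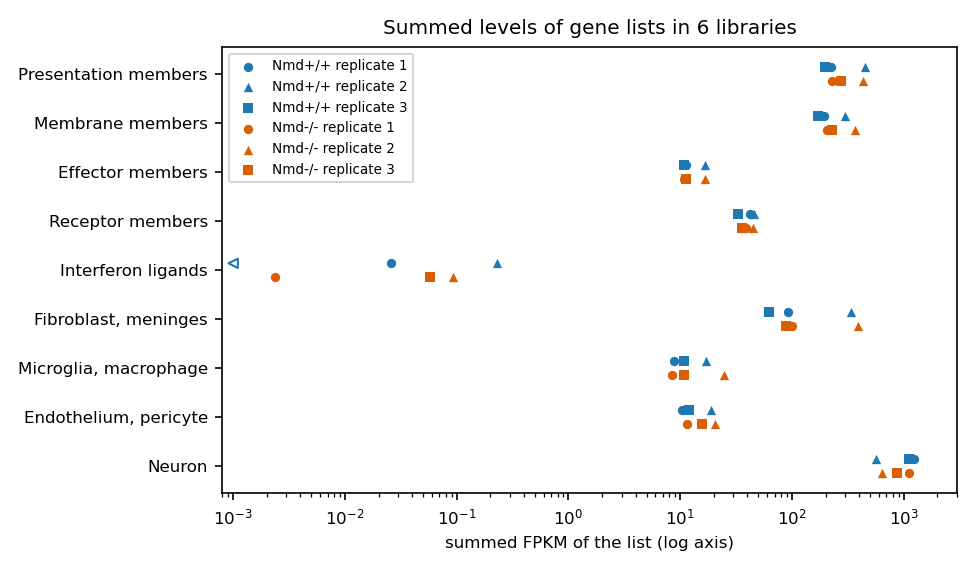
Summed FPKM of 4 groups of members, of the interferon ligands and of 4 lists of cell type markers, on a log axis, 1 point per library. The open triangle at the left edge marks Nmd+/+ replicate 3, where the ligands were listed at 0. Triangles, the libraries numbered 2, are highest in each list shown except the neuronal one, where they are lowest. Of the member groups and marker lists not shown, sensors and the glia and progenitor genes also have them highest. Signalling members do not (26.0 in Nmd+/+ replicate 2, 27.0 in Nmd-/- replicate 1). Neither do motoneuron genes or genes of dividing cells (431.0 and 403.0 in the libraries numbered 2, 445.4 in Nmd-/- replicate 3). Most of the glia and progenitor sum was Vim (3645 and 4452 FPKM in the libraries numbered 2). Of the 10 genes in that list, 5 were higher there by mean log2 values.

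Other genes of the pathway did not pass the test between genotypes either. Of 115 further genes 113 were in the files and 53 were tested, 43 of them higher and 10 lower in Nmd-/- by their means, with a median log2 difference of 0.07. In limma 0 passed, with and without the replicate block, and 1 (Lgals3bp) had an unadjusted p under 0.05, or 4 with the block. Over all 14611 genes these counts of unadjusted p were 65, and 711 with the block. Among receptors, kinases and related signalling genes (9 of 10 tested higher), Stat3 was the highest, at 29.5 ± 6.1 and 33.2 ± 8.7 FPKM in Nmd+/+ and Nmd-/-, and Tyk2 had the smallest p, at 1.10 ± 0.05 and 1.31 ± 0.19 FPKM (SD, n = 3 each). Among sensors and adaptors (8 of 11 higher), Samhd1, which depletes nucleotides, measured 32.1 ± 7.2 and 37.1 ± 6.0 FPKM, and Trim25, which activates RIG-I, 2.25 ± 0.58 and 3.09 ± 0.97 FPKM. Among further interferon-stimulated genes (12 of 15 higher), Shisa5 measured 31.6 ± 14.9 and 30.8 ± 10.2 FPKM and Lgals3bp 0.753 ± 0.258 and 1.298 ± 0.155 FPKM. Of the 53 genes 3 (5.66%) did not overlap between genotypes, beside 2.67% of all genes. These were Lgals3bp, Cmpk2 and Dtx3l, each higher in Nmd-/- in 3 of 3 pairs, with limma adjusted p = 0.9997. Cmpk2 measured 9.36 ± 0.19 and 10.6 ± 1.3 FPKM and Dtx3l 1.10 ± 0.30 and 1.502 ± 0.146 FPKM. Irf5 was the sole tested gene of the remaining Irf factors, at 14.6 ± 2.3 and 15.6 ± 3.8 FPKM, and its locus overlaps Tnpo3 (mean 33.5 FPKM) by 1043 bases.

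Within the rest of the presentation pathway, Calr, a chaperone gene of the endoplasmic reticulum, was the highest further class I gene, at 445 ± 93 and 442.3 ± 53.1 FPKM (SD, n = 3 each), and 7 of 10 tested were higher in Nmd-/-. H2-Q4, a class Ib heavy chain gene, had the smallest p of these, at 2.60 ± 0.89 and 3.68 ± 0.87 FPKM. Nlrc5, the activator of class I genes, did not exceed 0.350 FPKM in any library. Of the class II pathway, Ifi30, a thiol reductase gene of lysosomes, measured 5.92, 11.9 and 3.74 FPKM in Nmd+/+ and 4.78, 12.2 and 5.50 FPKM in Nmd-/-, another gene highest in the libraries numbered 2. H2-Aa lay between 1.11 and 2.90 FPKM, while the class II invariant chain gene Cd74 did not exceed 0.228 FPKM and the class II activator Ciita did not exceed 0.0435 FPKM. Psmb7 measured 132.0 ± 5.6 and 134.8 ± 11.2 FPKM and Psmb5 30.9 ± 5.6 and 33.3 ± 5.7 FPKM. Between replicate numbers 16 of the 53 passed (30.2%, beside 28.6% of all genes), and 37 of 53 (69.8%, beside 53.1%) were higher in the libraries numbered 2 by mean log2 values.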

How the data were processed

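The authors deposited 1 table per library with FPKM per gene, the bounds of a 95% interval and a status, in the Cufflinks layout per the file headers. Tools listed in the submitters' processing notes are Cufflinks 2.2.1, SAMtools 1.3, cutadapt 1.8, FastQC 0.10.1 and Trim Galore 0.4.0, with the build GRCm38. Interval widths correspond to between 15381970 and 23072408 fragments per library.

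Members, lists and tests were chosen with earlier results of these data known. Genes with a mean of at least 1 FPKM and an accepted status in each library (14611) were compared as log2(FPKM + 1) with limma 3.58.1 (intensity trend, R 4.3.3), two-sided, with Benjamini-Hochberg adjustment over all of them. The difference understates changes of low genes. The F test between replicate numbers had genotype as a term. In each role the member with the highest mean, that with the smallest p and any without overlap got a genotype test in the text; other members are given as levels, and those past the test between numbers with its p. From each further list the highest gene and that with the smallest p were named, along with genes chosen after their values were seen (Ifnb1, Nlrc5, Cd74, Ciita, Psmb6, Ifnz, Cmpk2, Dtx3l and single cell type markers).

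With group means removed, libraries sharing a number correlated at 0.82, 0.70 and 0.39, across genes. The sample titles give the numbers but state no pairing, so treating equal numbers as pairs comes from the values. The main fit between genotypes had genotype as its only term and did not use the pairing. It was used in the fit with the replicate block and in the same-numbered pairs. Genotype SEs and intervals are from the main fit unless the block is named. The median SE of the tested members was 0.186 in the main fit and 0.122 with the block. The procedure was tested on simulated data. Alternatives were the replicate block, quantile normalization, median-of-ratios scaling, a pseudocount of 0.1, no filter, a filter at 5 FPKM, and leaving out libraries.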

Additional observations from a re-analysis of the deposited data

How the results depend on the processing

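Over 14 alternatives, the 123 differences computed for 9 members tested by name had limma adjusted p-values of at least 0.245, and 118 kept their sign. The 5 that turned came from leaving out 1 library: the log2 difference of Ifit2 ranged from -0.047 (without Nmd-/- replicate 2) to 0.33 and that of B2m from -0.13 to 0.60. No member passed between genotypes under any of them, the replicate block included. Over all genes 0 passed as well, except 20 with replicate 2 of both genotypes left out and the replicate block. Leaving out each library in turn, the median difference of the members ranged from 0.031 (without Nmd-/- replicate 2) to 0.22 and the number higher in Nmd-/- from 13 to 22. With a mean of at least 5 FPKM, 10 of the 13 members then tested were higher. Between replicate numbers, 0 members and 0 genes passed with no filter on low values. That fit held 27711 genes, 129 of them with no residual variance, and its median prior degrees of freedom were 1.77, against 8.12 with the filter; their part in the loss was not tested. With the libraries numbered 2 left out, 1 member passed. The element count was 13 with the last base dropped and 9 with a C required after the first GAAA. Depth limits the 12 members below 1 FPKM, which entered only the fit with no filter, where 0 of them had an unadjusted p under 0.05.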
